A study of Mus musculus with 4 samples.

Results

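The compact gene regions bound by RNA polymerase II (Pol II) in every organ examined comprised 6585 linked regions of 152542 in 4 organs of C57BL/6 mice (heart, kidney, liver, lung). Each list holds the stretches of the genome where the authors called Pol II in 1 organ. Regions of the 4 lists that overlapped by at least 1 bp on chromosomes 1 to 19 and X were joined into linked regions. A linked region was kept when it held regions from all 4 lists, when every joined region was shorter than 10000 bp, and when it touched a protein-coding gene of mm10 or 1 kb either side of its span. The lists held 12053 linked regions in common, and the kept ones were 54.6% of these. The remainder were 4267 linked regions of genes with a region of 10000 bp or more, called long here, 896 compact ones outside genes, and longer ones away from genes. Presence in all lists, length and closeness to a gene were thus fixed by the choice and are described, not tested. Without the liver list, with only the other 3 required, 12123 linked regions met the rule. A limit of 5000 bp left 3796, and the 50% of regions with the highest score left 1590.

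Pol II transcribes all protein-coding genes. It assembles with general transcription factors at the promoter, starts transcription, often pauses shortly downstream, and is then released to elongate through the gene body until it ends beyond the 3′ end. Genes that serve every cell, such as those for the ribosome, protein turnover and nuclear transport, mostly start within CpG-rich promoters, while many genes of a single cell type or of acute responses carry a TATA box.

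Flash-frozen organs of 2 mice were crosslinked, and their chromatin was sheared together in a 96-well plate with PIXUL, an ultrasound instrument. The chromatin was precipitated with antibody 4H8, directed at the Pol II C-terminal domain, and libraries were made by Tn5 tagmentation. The purpose given was to map Pol II in parallel in the 4 organs. The sources used here do not say whether a list pools both mice, nor give their sex and age. With 1 list per organ (n = 1) there is no replicate error for any value, and differences between organs are described without a test. An organ is a mixture of cells, so a higher share of cells using a gene and more Pol II per cell cannot be told apart.

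The lists rested on 9880184 tags in the heart, 16589890.5 in the kidney, 20058183 in the liver and 13296938 in the lung. Scaled to 10000000 tags, the caller's threshold for a window of 500 bp differed between organs. It came to 18.2 tags per kb in the heart, 14.5 in the kidney, 14.0 in the liver and 16.5 in the lung. It was no floor under the density of listed regions. The fewest tags per kb in a kept linked region were 12.8 in the heart, 11.4 in the kidney, 10.1 in the liver and 11.6 in the lung. Marker genes followed the organ labels. At least 50.0% of the span was covered by regions of the organ's own list for 27 of 32 cardiomyocyte genes in the heart, 25 of 27 kidney tubule genes in the kidney, 32 of 33 hepatocyte genes in the liver and 18 of 24 lung epithelium genes in the lung. In any organ other than its own, no more than 7 genes of a list were covered that far.

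The 5 promoters printed here show the sequence around starts that all 4 lists held, first 3 promoters of genes used by every cell and then 2 of genes that are switched on at certain times. Each runs 5′ to 3′ on the gene's own strand, with 250 bases before the start of transcription and 30 from the start on, from RefSeq's GRCm38.p6, the assembly of mm10. Capitals mark exact matches, on either strand, to 6 motifs. The ETS-type motif was searched as CCGGAAG and the E-box as CACGTG. The YY1-type motif was searched as AAGATGGC and the CCAAT box by its own 5 letters. The GC box was searched as GGGCGG. The TATA box was searched as TATAAA. Aida is at chr1:183296810-183297089 (+), Gtf3c6 at chr10:40257533-40257812 (-), Atp5g1 at chr11:96075602-96075881 (-), H1f4 at chr13:23622529-23622808 (-) and Gadd45g at chr13:51846425-51846704 (+).
Aida: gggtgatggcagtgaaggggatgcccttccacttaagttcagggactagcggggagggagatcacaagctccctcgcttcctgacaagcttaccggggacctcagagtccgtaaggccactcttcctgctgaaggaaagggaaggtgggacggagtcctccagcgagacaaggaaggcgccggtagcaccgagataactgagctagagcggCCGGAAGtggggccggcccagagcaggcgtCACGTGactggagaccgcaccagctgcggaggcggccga
Gtf3c6: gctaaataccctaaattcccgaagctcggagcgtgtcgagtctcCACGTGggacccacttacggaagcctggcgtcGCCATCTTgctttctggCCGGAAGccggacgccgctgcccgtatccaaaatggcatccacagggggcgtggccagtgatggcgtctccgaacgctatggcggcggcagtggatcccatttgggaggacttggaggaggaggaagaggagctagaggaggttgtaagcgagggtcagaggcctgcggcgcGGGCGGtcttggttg
Atp5g1: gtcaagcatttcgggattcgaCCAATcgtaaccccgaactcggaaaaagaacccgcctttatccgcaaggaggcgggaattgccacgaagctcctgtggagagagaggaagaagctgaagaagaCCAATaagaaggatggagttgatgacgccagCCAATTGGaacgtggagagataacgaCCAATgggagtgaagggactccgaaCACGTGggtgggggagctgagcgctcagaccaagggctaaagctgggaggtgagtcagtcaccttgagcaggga
H1f4: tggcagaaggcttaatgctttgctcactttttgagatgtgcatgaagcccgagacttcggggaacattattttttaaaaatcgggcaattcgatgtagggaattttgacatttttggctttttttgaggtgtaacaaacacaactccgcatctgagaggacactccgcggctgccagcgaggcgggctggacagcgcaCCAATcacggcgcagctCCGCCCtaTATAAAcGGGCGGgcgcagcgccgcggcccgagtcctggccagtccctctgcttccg
Gadd45g: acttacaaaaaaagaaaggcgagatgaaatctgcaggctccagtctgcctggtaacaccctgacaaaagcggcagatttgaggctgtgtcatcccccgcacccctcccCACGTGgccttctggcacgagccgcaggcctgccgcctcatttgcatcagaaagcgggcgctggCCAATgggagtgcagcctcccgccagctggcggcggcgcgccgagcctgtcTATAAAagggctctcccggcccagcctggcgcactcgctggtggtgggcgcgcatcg

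Positions are those of the leftmost base of a match, counted from the start, with negative numbers before it. Density is the scaled tag count of an organ's regions in a member divided by their summed length. Aida, which encodes a protein that binds axin, had CCGGAAG at -39 and CACGTG at -9, and Brox starts 52 bp away on the other strand. Its density was 48.6 tags per kb in the heart, 46.3 in the kidney, 44.5 in the liver and 31.0 in the lung over chr1:183296506-183300125, with 3070 bp covered in all 4 lists. The 95% Poisson intervals, which cover counting error only, overlapped among heart (41.6 to 56.4), kidney (40.8 to 52.3) and liver (39.6 to 49.8), and that of lung (25.8 to 36.9) lay below them. Gtf3c6, a subunit of the factor that recruits Pol III, had CACGTG at -206, AAGATGGC at -174 on the other strand and CCGGAAG at -157. Gtf3c6 has another start on record upstream, and from that one these matches lie at -56, -24 and -7. Its member at chr10:40255032-40260419 measured 48.0 tags per kb in the heart, 39.2 in the kidney, 34.2 in the liver and 29.9 in the lung. Atp5g1 encodes a subunit of the ring that turns in the mitochondrial ATP synthase, and its promoter had 5 matches to CCAAT, of which 4 read on the gene's strand, and CACGTG at -44. It had 51.5 tags per kb in the heart, 36.5 in the kidney, 31.5 in the liver and 21.9 in the lung, and the Poisson interval of heart (45.1 to 58.7) lay above that of kidney (32.1 to 41.2).

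H1f4, a linker histone gene whose RNA is made mainly when DNA is copied, had CCAAT at -52 and TATAAA at -27 with a GC box on either side. Together with H2bc6 its member had 34.7 tags per kb in the heart, 33.4 in the kidney, 40 in the liver and 33.6 in the lung, and all 4 intervals overlapped. Gadd45g, a stress-response gene, had CACGTG at -142, CCAAT at -78 and TATAAA at -27. Its density was 35.5 tags per kb in the heart, 39.6 in the kidney, 32.8 in the liver and 22.1 in the lung, with lung lowest.

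A typical member was a few kilobases long and put together from several called regions. The linked length ran from 525 to 34460 bp with a median of 5379 bp and quartiles of 3411 and 8123 bp. Members joined 42865 called regions, a median of 6.00 each and up to 40, and 1711 members (26.0%) held exactly 1 region per organ. Joining made 769 members 10000 bp or longer although each called region was shorter. In 5357 members (81.4%) a single protein-coding gene was touched, in 1103 there were 2, in 113 there were 3 and in 12 there were 4.

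Being held by all lists did not mean that a base was shared by all of them. A stretch covered in all 4 lists existed in 4609 members (70.0%, exact 95% binomial interval 68.9 to 71.1), and 1976 members were chains in which no base was common to the 4. Where gene starts lay in the member, the share was 90.2% (89.0 to 91.3) and the shared stretch had a median of 1256 bp. Members inside gene bodies had a shared stretch in 48.9% (47.1 to 50.8), with a median of 468 bp. The intervals of members at starts and in bodies did not overlap. An organ present only as the smallest possible region of 500 bp occurred in 367 members at starts (13.6%) and in 1333 members in bodies (48.1%).

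The members lay mainly in 2 places, gene starts and gene bodies. A start of transcription on record lay in 2697 members (41.0%, 39.8 to 42.2), and 2769 (42.1%, 40.9 to 43.3) lay within gene bodies away from either end. A known 3′ end was held by 398 members (6.04%), a gene end whose strand the promoter table does not give by 646 (9.81%), and the kilobase beside a gene alone by 75 (1.14%). Starts were on record for 17274 of 21631 protein-coding genes (79.9%), so the count at starts is a lower one. Among long regions held by all lists a start lay in 66.2% (64.8 to 67.6), a share not adjusted for their greater length. Among linked regions of genes held by 3 lists it lay in 13.4% (12.7 to 14.1), by 2 lists in 4.72% and by 1 list in 1.26%. These shares were not adjusted for the length of the linked regions either. Of the 4609 shared stretches, 2257 (49.0%, 47.5 to 50.4) lay within 1000 bp of a start on record.

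Around the start, coverage was centred on or just before the first transcribed base and reached further into the gene than away from it. The members used here were taken because a start lay in the linked region, and each called region was shorter than 10000 bp. A peak near the start and a fall with distance were thus partly set by the choice. Of 1986 members with a single start on record, the start itself was covered in 79.2% in the heart (77.4 to 81.0), 86.4% in the kidney (84.8 to 87.8), 87.6% in the liver (86.1 to 89.0) and 76.2% in the lung (74.2 to 78). All 4 lists covered it in 1105 members (55.6%). Reach was taken over all 1986 members, to the outermost edge of an organ's regions in the member, gaps included. Where these regions lay only on the other side of the start, it counted as no reach. The median reach downstream was 1852 bp in the heart, 2433 bp in the kidney, 2042 bp in the liver and 2180.5 bp in the lung. The reach upstream was shorter in each organ, with 1102 bp in the heart, 1611 bp in the kidney, 1383 bp in the liver and 1433 bp in the lung. Coverage 5000 bp into the gene had fallen to between 11.7% and 14.6% of members. The curve peaked 100 bp before the start in the heart and liver, at the start in the kidney and 300 bp before it in the lung.

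**Figure D1:**
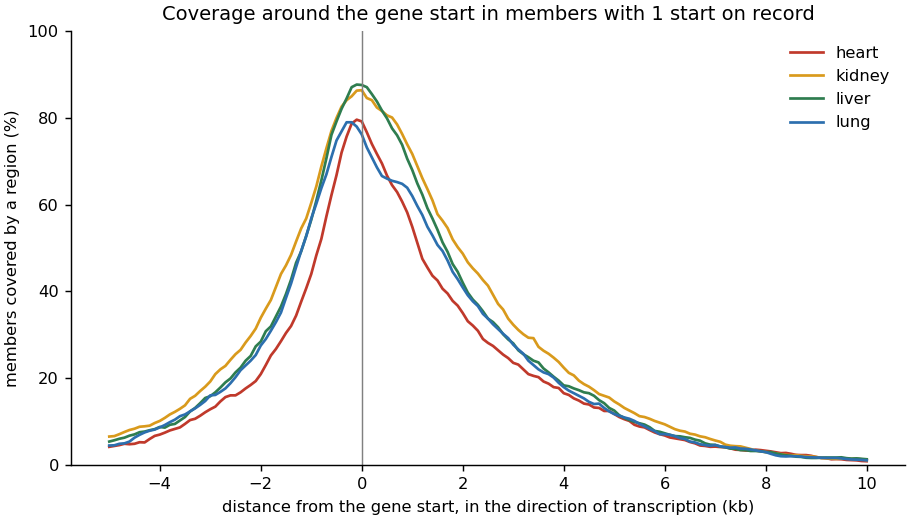
Share of the 1986 members with 1 start on record whose bases are covered by a region (vertical axis, %) against distance from the start in kb in the direction of transcription (horizontal axis), with 1 line per organ. All lines peak at or within 300 bp before the start, between 79.0% in the lung and 87.7% in the liver, and fall more slowly into the gene than away from it. The members were chosen for holding a start, which partly sets the peak and the fall.

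Inside gene bodies the members were spread along the gene. By definition they held no start on record and no gene end, which can lower their shares near either end. Of 2222 with a gene whose direction was known, cut into 4 equal stretches from the start, 23.2% lay in the first, 29.0% in the second, 28.2% in the next and 18.9% in the last. These members were thinner and shorter than those at starts. Their median density was 20.9 tags per kb in the heart, 17.3 in the kidney, 15 in the liver and 17.6 in the lung, against 22.7 in the heart, 19.2 in the kidney, 18.1 in the liver and 18.8 in the lung for members at starts. Every median in bodies was within 3 tags per kb of the caller's threshold for that organ.

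Genes that start back to back on opposite strands shared a member in 286 cases, 10.6% of the members at starts, with a median of 156 bp between the starts when up to 1000 bp was allowed. Mttp, which loads lipid onto lipoproteins, and Trmt10a, a tRNA methyltransferase, start 30 bp apart at chr3:138140891-138145434. That member had 36.0 tags per kb in the heart, 30.4 in the kidney, 41.2 in the liver and 23.3 in the lung. The ribosomal protein gene Rpl35a starts 267 bp from Iqcg in a member with 27.4 tags per kb in the heart, 43.9 in the kidney, 50.7 in the liver and 22.3 in the lung. Kidney and liver were the higher organs there, and heart and lung the lower ones. The tags of such pairs cannot be assigned to either gene.

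Promoters in members were rich in CpG and in ETS-type motifs and poor in TATA boxes. The comparison used 300 bases around each start (250 before it and 50 after), for 3627 starts of 3084 genes in members and 21045 starts in all. The members were not chosen by sequence. Several starts can belong to 1 gene and share bases, and the intervals do not allow for that. The ratio of observed to expected CpG was over 0.6 in 80.7% of promoters in members (79.4 to 82.0), 69.1% in long regions held by all lists, 58.6% where 3 lists had a region, 41.1% with 2 lists, 26.9% with 1 list, 21.4% with no region, and 48.1% of all starts. The order of the groups therefore followed the number of lists, and compact members stood above long regions. The median ratio was 0.812 in members, against 0.758 in long regions and 0.574 over all starts. The median GC content was equal in members and long regions, at 61.3%.

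The ETS-type motif CCGGAAG, read on both strands, occurred in 23.8% of promoters in members (22.4 to 25.2), against 16.5% in long regions (15.5 to 17.5) and 11.7% of all promoters. ETS factors are a large family of transcription activators. AAGATGGC was found in 6.34% of promoters in members, 4.25% in long regions and 3.07% of all, with both differences lying the same way as for the ETS-type motif. The NRF1 motif occurred in 3.01% of promoters in members, 1.84% in long regions and 1.34% of all, and the ZNF143 motif in 0.882%, 0.714% and 0.428% of them. The GC box GGGCGG occurred in 65.8% in members, close to 64.4% in long regions, against 46.7% of all. TATAAA was the rarer one, with 5.71% in members (4.97 to 6.51), against 7.29% in long regions and 12.7% of all promoters. CCAAT was found at nearly the same share in each group, 39.0% in members against 38.2% in long regions and 38.5% of all. CACGTG occurred in 10.8% in members, against 9.91% in long regions and 7.91% of all, and TGACGTCA, the cAMP response element, in 4.25% against 2.54% and 2.26%. Palindromic motifs were counted once per place, and no motif contains another. A match describes the letters only and does not show that a factor was bound. The shares were not adjusted for base composition.

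**Figure D2:**
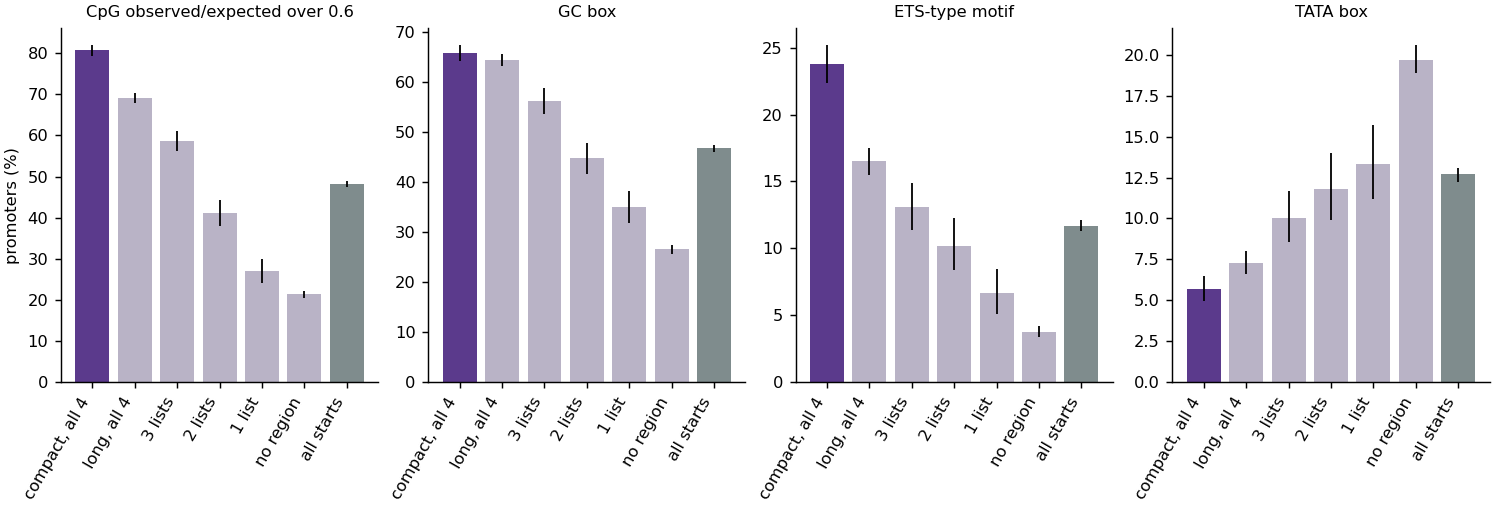
Share of promoters (vertical axes, %, each from 0) with an observed to expected CpG ratio over 0.6, a GC box, an ETS-type motif or a TATA box, in promoters in members (dark bars), in long regions, in regions of 3, 2 or 1 lists, in no region, and over all starts; bars show shares and lines exact 95% binomial intervals. Members stand highest for CpG (80.7%) and the ETS-type motif (23.8%) and lowest for the TATA box (5.71%).

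Of all 21631 protein-coding genes, 5395 (24.9%) had a member in the span or within 1 kb of it, and 6469 (29.9%) had a long region held by all lists, with 1670 genes having both. Most genes with a member had 1 (3947, or 73.2%), 932 had 2 and 516 had 3 or more. The genes with most were Tnrc6b, which acts in silencing by miRNAs, with 17, Arid1b, a subunit of a chromatin remodeller, and Zfp609 with 15 each, Etv6 and Rad51b with 14, and Ash1l, a histone methyltransferase, with 13. These are long genes. The median span of genes with 3 or more members was 83698 bp, against 17329 bp over all genes. By span, a member was found in 12.8% of genes under 10 kb, 28.5% of genes from 10 to 30 kb, 35.0% from 30 to 100 kb and 33.4% of longer ones. The shares of gene lists were not adjusted for span.

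Genes that work in every cell held members often. The nuclear pore and nuclear transport list had a member in 28 of 40 genes (70.0%, 53.5 to 83.4) and a long region in 19. Its members included Xpo1, the main nuclear export receptor, Ran, the GTPase that gives transport its direction, Tpr and Ranbp2 of the pore's filaments, and Kpna1, an importin alpha. Density at Tpr (shared with Odr4) was 25.7 tags per kb in the heart, 25 in the kidney, 25.8 in the liver and 22.6 in the lung. At Ran it was 21.2 in the heart, 14.5 in the kidney, 13.8 in the liver and 17.9 in the lung. Both starts lay in their members, and neither gene had a long region. Ubiquitin activation and conjugation had a member in 31 of 50 genes (62.0%), vesicle coats and Golgi transport in 34 of 57 (59.6%), RNA decay in 22 of 39 (56.4%), and translation factors and tRNA synthetases in 32 of 59 (54.2%). All 5 shares were above the 24.9% of all genes, and so were the lower ends of their intervals. All protein-coding genes include 5653 with no region in any of the lists of organs, while each of these 5 gene lists includes 0. The median spans of these lists ran from 17916 bp (translation) to 41902 bp (nuclear pore), against 17329 bp over all genes. Of all genes from 30 to 100 kb, 35.0% had a member.

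The transcription machinery itself belonged to this set. Of Pol II subunits, general transcription factors and Mediator, 46 of 81 genes (56.8%, 45.3 to 67.8) had a member, and 28 had their start in one. Gtf2a1, the large subunit of TFIIA, which steadies TBP on the promoter, had 39.8 tags per kb in the heart, 27.9 in the kidney, 35.4 in the liver and 23.5 in the lung. Cdk8, the kinase of Mediator, had 49.0 in the heart, 26.9 in the kidney, 29.9 in the liver and 40.7 in the lung, in a member inside its body. DNA repair had a member in 29 of 57 genes (50.9%) and a long region in 17. Neither was found at 17 of its genes (29.8%). That was the highest share among the 18 shared-function lists, but below the 52.9% of all protein-coding genes. Mutyh, the glycosylase that removes adenine opposite oxidised guanine, shared a member with Hpdl at 30 in the heart, 28.5 in the kidney, 25.4 in the liver and 16.1 in the lung. Polk, a polymerase that copies past damaged bases, shared one with Cert1 that was nearly level, at 23.4 in the heart, 25.3 in the kidney, 22.6 in the liver and 22.8 in the lung.

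Other lists of broad use held compact members too, and held a long region in more of their genes, as vesicle coats also did (36 of 57). The shares are read beside 24.9% of all genes for compact and 29.9% for long regions. Cytosolic ribosomal proteins had a member in 24 of 78 genes (30.8%, 20.8 to 42.2) and a long region in 55, with every gene in 1 or both. These are short genes, with a median span of 3169.5 bp, and of all genes under 10 kb 12.8% had a member. Chaperones had a member in 13 of 37 (35.1%, 20.2 to 52.5) and a long region in 29. The intervals of both lists included 24.9%. Respiratory chain subunits had a member in 29 of 73 (39.7%, 28.5 to 51.9) and a long region in 49, and the spliceosome a member in 25 of 60 (41.7%, 29.1 to 55.1) and a long region in 39. The citric acid cycle had a member in 11 of 24 (45.8%, 25.6 to 67.2) and a long region in 18. The intervals of these 3 lists lay above 24.9%. Rps6, a protein of the small ribosomal subunit, shared a member with Dennd4c at 24.5 tags per kb in the heart, 27.6 in the kidney, 37.1 in the liver and 21.2 in the lung. Psmb4, a subunit of the proteasome core, shared one with Pogz at 19.2 in the heart, 24.6 in the kidney, 28.2 in the liver and 21.4 in the lung. Liver was highest at both. Stip1, a co-chaperone that links Hsp70 and Hsp90, had 37.3 in the heart, 24.8 in the kidney, 25.8 in the liver and 19.7 in the lung, with heart highest. Proteasome subunits had a member in 14 of 32 genes (43.8%, 26.4 to 62.3) and a long region in 18, and mitochondrial ribosomal proteins had a member in 30 of 78, of which 24 had their start in one.

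Regulated lists were mixed. Core clock genes had a member in 12 of 23 (52.2%, 30.6 to 73.2) and a long region in 17. Nr1d2, the repressor REV-ERB beta, had 34.5 tags per kb in the heart, 28.4 in the kidney, 26.9 in the liver and 19.6 in the lung at its start, and Cry1, a repressor of the clock's activators, 24.9 in the heart, 16.9 in the kidney, 29.3 in the liver and 19.9 in the lung in its body. The sources used here do not give the time of day at which the organs were taken. Immediate early genes had a member in 9 of 44 (20.5%, 9.80 to 35.3), near the 24.9% of all genes, and a long region in 33. Autophagy had a member in 15 of 36 and a long region in 23, and histone genes a member in 7 of 24 and a long region in 17.

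The lists of genes of a single cell type all had a lower share with a member than the 24.9% of all genes. No cardiomyocyte gene of 32 (0%, up to 10.9%) and no hepatocyte gene of 33 (0%, up to 10.6%) had a member. Kidney tubule genes had 1 of 27, neuronal genes 2 of 32, lung epithelium 2 of 24, endothelium 3 of 30 and blood and immune cells 3 of 32. The intervals of lung epithelium, endothelium, and blood and immune cells included 24.9%. Those of cardiomyocyte, hepatocyte, kidney tubule and neuronal genes lay below it. The blood and immune genes were Cd79a, Cd74 and Csf1r, the lung epithelium ones Abca3 and Etv5, and the neuronal ones Syp and Slc17a7. A member can belong to a neighbour. That of Cd79a, a chain of the B cell receptor, also touched Arhgef1, and it was even among organs at 30.6 tags per kb in the heart, 24.7 in the kidney, 26.5 in the liver and 26.7 in the lung. That of Slc5a2, the glucose transporter of the proximal tubule, also touched Rusf1 and had 17.2 in the heart, 18.1 in the kidney, 14.0 in the liver and 16.5 in the lung. Long regions held by all lists were found at 14 cardiomyocyte and 14 hepatocyte genes, so the absence concerns compact ones. The rule left out linked regions with any called region of 10000 bp or more. The marker coverage given above was reached by 27 of 32 cardiomyocyte genes in the heart and 32 of 33 hepatocyte genes in the liver. The median spans of these lists were 25020 bp (cardiomyocyte) and 12264 bp (hepatocyte). The part of the length limit in the absence was not tested, and the intervals do not allow for it. Long regions held by all lists were also found at 19 of 30 endothelial genes (63.3%), against 29.9% of all genes.

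**Figure D3:**
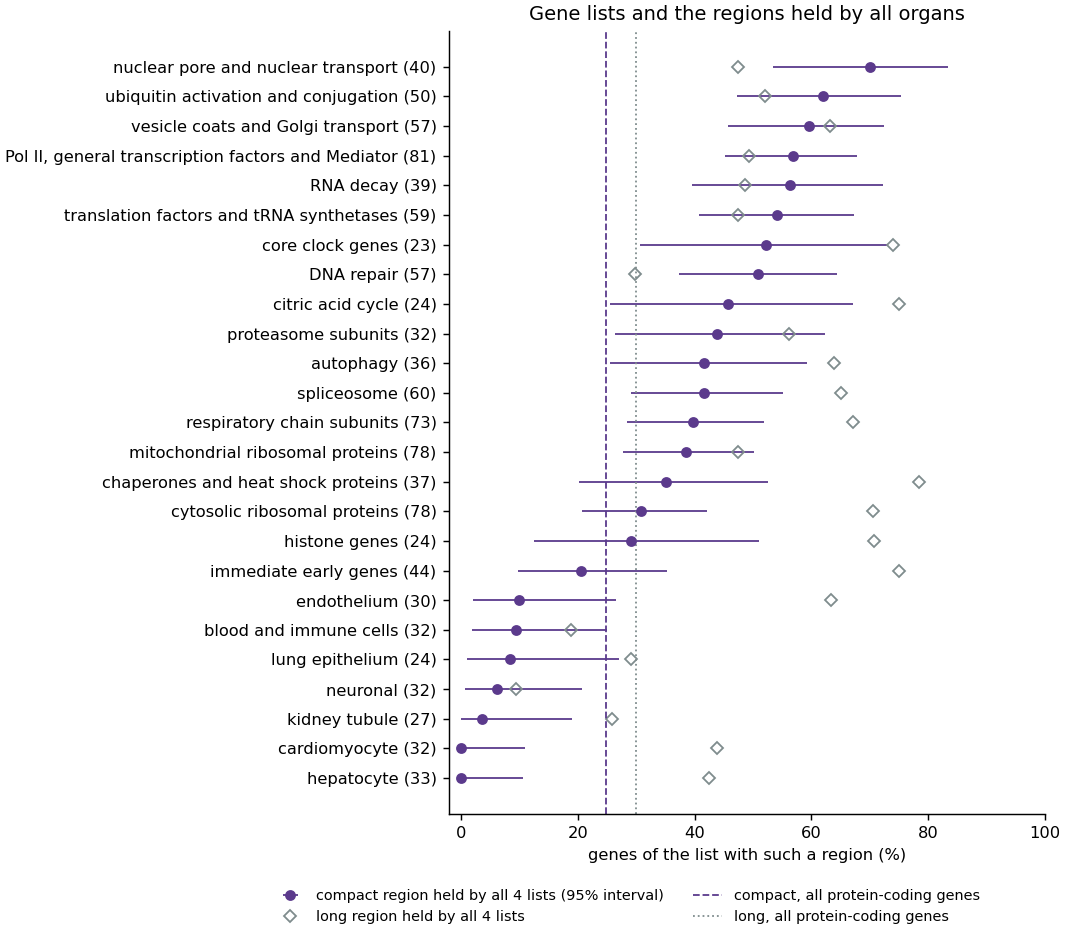
Share of each gene list with a compact region held by all 4 lists (filled circles, lines are exact 95% binomial intervals) and with a long one (open diamonds), in % of the list (horizontal axis), with the number of genes in brackets; vertical lines mark all protein-coding genes, 24.9% for compact and 29.9% for long. Nuclear pore genes stand highest at 70.0%, and cardiomyocyte and hepatocyte genes are at 0 for compact regions.

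Density varied less between organs than length did. The ratio of the highest to the lowest organ's tags per kb had a median of 1.45 (quartiles 1.31 and 1.62), was under 1.5 in 3890 members (59.1%), and reached 3 in 9. It was lower than in long regions, with a median of 1.57, and in compact regions outside genes, with 1.54. The ratio of the longest to the shortest covered length had a median of 3.42 and reached 3 in 3755 members (57.0%). The caller sets a threshold on the tags in a window, and the length limit a ceiling on length. Their part in these ratios was not tested.

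Heart was densest and had the shortest regions. The median density over members was 21.6 tags per kb in the heart, 18.1 in the kidney, 16.2 in the liver and 18.1 in the lung. The median covered length ran the other way for heart, at 2124 bp against 2925 bp in the kidney, 2792 bp in the liver and 2461 bp in the lung. Heart was the densest organ in 4366 members (66.3%), kidney in 894 (13.6%), liver in 609 (9.25%) and lung in 716 (10.9%), and liver was the thinnest in 3665 (55.7%). The caller's thresholds stood in a like order, highest in the heart (18.2 tags per kb) and lowest in the liver (14.0), and heart had the fewest tags. Their part in the order of the organs was not tested. Members took up 12.1% of the bases in regions in the heart, 12.1% in the kidney, 11.2% in the liver and 13.3% in the lung, and 10.5% of region tags in the heart, 10.8% in the kidney, 8.15% in the liver and 12.8% in the lung.

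**Figure D4:**
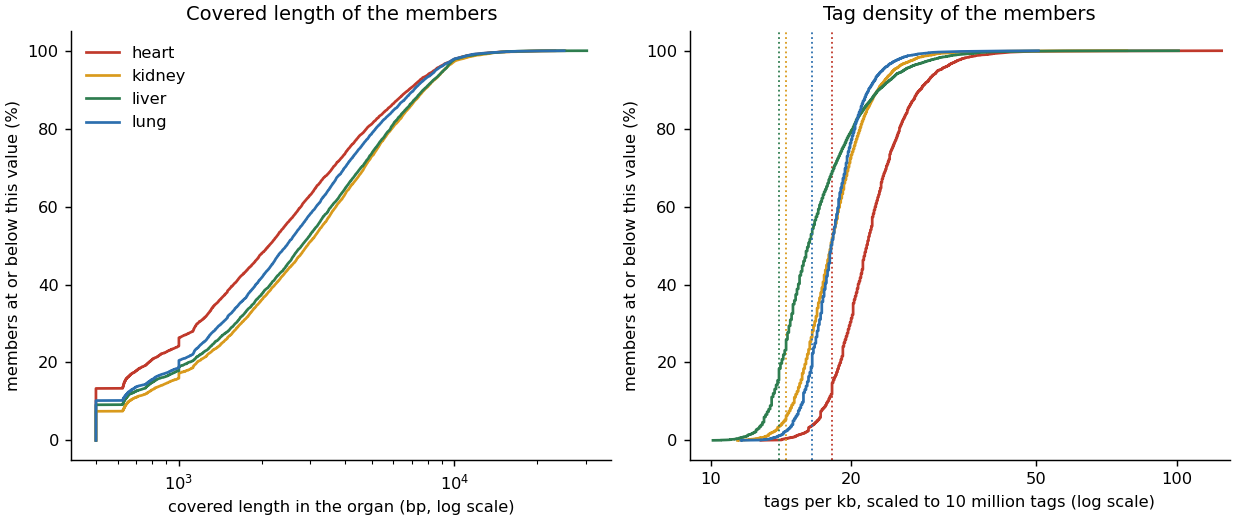
Cumulative share of the 6585 members (vertical axes, %) by covered length in bp (left, log scale) and by density in tags per kb scaled to 10000000 tags (right, log scale), with 1 line per organ; dotted lines mark the caller's threshold in each organ. The heart line lies to the right for density (median 21.6) and to the left for length (median 2124 bp).

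Among the densest members was a group of histone genes. The histone genes H3c15, H2ac19, H2ac18 and H3c14 at chr3:96239384-96246452 had 69.7 tags per kb in the heart, 52.5 in the kidney, 57.2 in the liver and 43.0 in the lung. Heart was highest and lung lowest. Histone genes have near-identical copies, and the sources used here do not say how tags with several matches were handled, so these values are uncertain.

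Other members among the 10 densest were Tacc2, Apool, Brox with Aida, Kctd16, Tex14 and Cmss1 with Filip1l. Several were short and lay inside gene bodies. Kctd16 had 48.6 tags per kb in the heart, 67.0 in the kidney, 37.4 in the liver and 32.4 in the lung over 500 bp in each list, from 21.5 tags in the lung to 55.6 in the kidney. Apool had 33.4 in the heart, 45.1 in the kidney, 49.8 in the liver and 50.5 in the lung over 500 to 627 bp. Such values rest on few tags, and their Poisson intervals overlapped between most organs. Tacc2, which encodes a protein of the centrosome, differed widely between organs, with 90.9 in the heart, 50.7 in the kidney, 45.8 in the liver and 20.7 in the lung. Tex14 was dense and level, with 43.7 in the heart, 42.8 in the kidney, 42.1 in the liver and 42.8 in the lung over 7375 to 9478 bp inside the gene. Tex14 encodes a protein of the bridges between germ cells, and germ cells were not in the samples as labelled.

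Apart from Tex14, the 6 most level members were not among the 10 densest. Tmem170b had 22.1 tags per kb in the heart, 22.4 in the kidney, 22.1 in the liver and 22.5 in the lung at its start, a ratio of highest to lowest of 1.02. Nek1, a kinase of the primary cilium, had 19.8 in the heart, 19.3 in the kidney, 19.8 in the liver and 19.5 in the lung. Ptpn6, a phosphatase of blood cells, had 16.6 in the heart, 16.9 in the kidney, 16.4 in the liver and 16.8 in the lung, at a level near the thresholds. At Ptpn6 no base was covered in all 4 lists, and the values rest on 14.0 tags in the kidney to 27.0 in the heart, before scaling. Slc31a2 and Zhx2 were also among the 6 most level, both with a ratio of 1.04, together with Tex14.

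A density at least 2 times the median of the other 3 organs was reached in 79 members in the heart (1.20%), 3 in the kidney (0.0456%), 10 in the liver (0.152%) and 0 in the lung. Over all 12053 linked regions held by all lists, the same was reached in 2.64% in the heart, 0.158% in the kidney, 2.02% in the liver and 0.0166% in the lung. The share in members was lower than over all linked regions in each organ. When densities were instead divided by each organ's median over the linked regions held by all lists, 12 members passed in the heart and 26 in the liver, so which of them had more depended on the scaling. The share over all linked regions is not at hand for that scaling, so these 2 counts cannot be read beside one. With 1 list per organ these are descriptions of size and no p-value belongs to them.

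Members with a large fold were examined in each organ. In heart, Armc2 had 54.9 tags per kb, against 17.6 in the kidney, 11.9 in the liver and 19.3 in the lung, a fold of 3.12, and Gpr157 had 47.3, against 14.3 in the kidney, 21.1 in the liver and 16.2 in the lung. In kidney, Slc4a4, the sodium bicarbonate cotransporter of the proximal tubule, had 42.8 over 4488 bp, against 17.2 in the heart, 15.6 in the liver and 16.5 in the lung, a fold of 2.59. In liver, Mcm10, a factor for starting DNA replication, had 41.4, against 21.2 in the heart, 14.0 in the kidney and 15.6 in the lung. In lung, the largest fold was 1.83 at Cd74, the chaperone of MHC class II, with 27.7, against 24.7 in the heart, 15.1 in the kidney and 13.5 in the liver. At Tmsb4x, a small protein that binds actin, lung had 33.3 and heart 37.6, against 18.5 in the kidney and 12.5 in the liver. At Slc4a4 and Mcm10 an organ other than the high one held only 500 bp, and no base was covered in all 4 lists, so these folds compare densities of regions called at different places within the member. Heart covered 8184 bp at Armc2, against 1074 to 2706 bp elsewhere, with 432 bp in all 4 lists. At Gpr157 it covered 8046 bp, against 1260 to 3069 bp, with 913 bp in all 4. Lung covered 6706 bp at Cd74, against 647 to 2014 bp, with 424 bp in all 4. These 3 folds also compare stretches that differ widely in length.

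**Figure D5:**
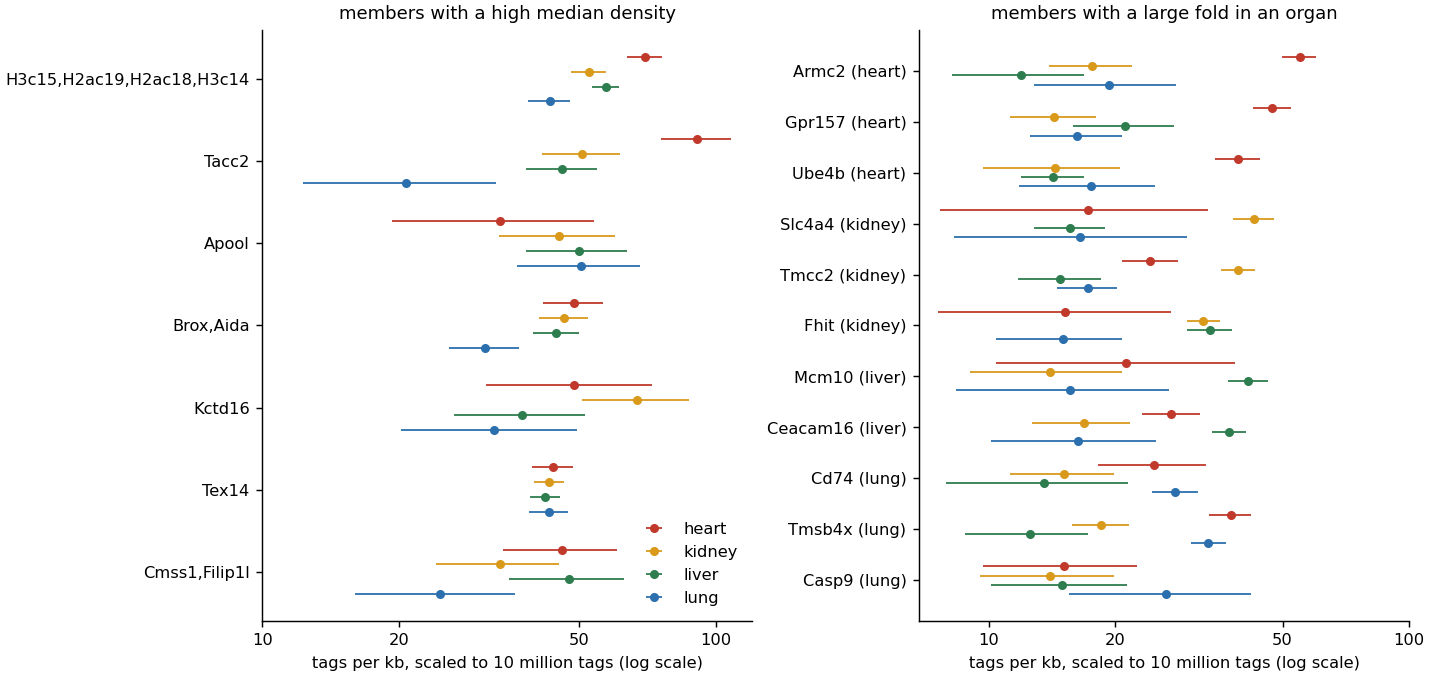
Density in tags per kb scaled to 10000000 tags (horizontal axes, log scale) in the heart, kidney, liver and lung for members among the 10 with the highest median (left) and among the 3 with the largest fold in each organ (right); points are single values (n = 1 per organ) and lines exact 95% Poisson intervals for counting error only. The histone member reaches 69.7 in the heart, and Armc2 reaches 54.9 in the heart against 11.9 to 19.3 elsewhere.

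The length limit separated members from similar regions just past it. Just inside, the longest region was 9996 bp at Cnr2 with Fuca1 and at Prickle3 with Plp2, and 9995 bp at Thap2 with Zfc3h1. Just outside, it was 10000 bp at Sgms1 and 10001 bp at Nav2 and at Foxn3 with Gm51999. Density at Thap2 with Zfc3h1 was 20.9 tags per kb in the heart, 22.6 in the kidney, 29.2 in the liver and 20 in the lung. At Sgms1 it was 24.2 in the heart, 23.6 in the kidney, 19.2 in the liver and 17.4 in the lung.

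The most genes in a member were 4, in 12 members, of which 5 are given. Besides the histone genes of chromosome 3, these were Ttyh1 with Leng8, Leng9 and Cdc42ep5, Zbtb4 with Chrnb1, Fgf11 and Tmem102, Dcaf1 with Rbm15b, Manf and Dock3, and Loxl3 with Htra2, Aup1 and Dqx1. At the Zbtb4 member the covered length was 22402 bp in the heart, 21772 bp in the kidney, 24168 bp in the liver and 24996 bp in the lung, the sum of several shorter regions. Its density was 27.8 tags per kb in the heart, 22.2 in the kidney, 18.6 in the liver and 24.6 in the lung. In such a member the tags of the genes cannot be told apart.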

How the data were processed

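Pol II ChIP-seq of 4 mouse organs was analysed from 1 list of called regions per organ. The submitters' processing notes name Bowtie2 2.2.8, HOMER 4.8 and mm10. HOMER's findPeaks was run in its histone mode, per the file headers. It used windows of 500 bp, a Poisson p threshold of 0.001, a fragment length of 78 bp and no control library named, so local bias was not subtracted by one. As signal, the authors deposited for each region its tag count after scaling every library to 10000000 tags. They also deposited a caller score and, as a ratio, a clonal fold change, both defined per the file headers. The score was used only to split a list, and the clonal ratio reached no more than 1.87 in any region of a member. Region lengths were also deposited.

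Regions were linked and set against 21631 protein-coding genes of GRCm38.p6 with Python 3.11.15, numpy 2.4.6, pandas 2.3.3 and scipy 1.17.1. Density in an organ is the sum of its tags in a member divided by the sum of its region lengths. The fold of an organ is its density over the median of the other 3. Intervals are 95% exact (Clopper-Pearson for shares, Poisson for tags) and cover counting error only, since tags are not independent molecules and genes not independent samples. Starts and strands came from RefSeq's promoter table, which has no entry for some genes. Of 1102 gene list entries, 1076 matched by symbol and 26 by synonym. The members and lists were chosen with earlier results of these data known. Genes named are the 10 members with the highest median density, the 3 with the largest fold per organ, the 6 most level, the 2 densest per gene list (of which examples are given), the 3 on either side of the length limit and the 5 with the most genes. Gtf3c6, Ran, Xpo1, Ranbp2, Csf1r, Trmt10a with Mttp and the genes with the most members were chosen after their values were seen, and so were the printed promoters. Some genes that the rule names are not reported here. Linking and gene overlap were tested on simulated data, where 100.0% of 8968 regions and 100.0% of 179360 region and gene pairs equalled a direct count. Alternatives covered the overlap, the length limit, the gene window, weak regions, each list left out, the fold and its scaling.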

Additional observations from a re-analysis of the deposited data

How the results depend on the processing

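The number of members, 6585, was 3796 with a limit of 5000 bp, 1590 with the 50% of each list that had the highest score, and 12123 when the liver list was left out and the other 3 were required. Leaving out a list gave 8385 to 12123 members. It stayed within 1.5 times with an overlap of 50% (6461), a limit of 20000 bp (8846), a gene window of 0 (6510) or 5000 bp (6777), and at least 10 tags (4551). The share of shared stretches near a start was 44.1% within 500 bp and 52.3% within 2500 bp. The share of all genes with a member was 24.3% with no window and 12.8% for spans under 10000 bp. The CpG share was 85.3% for starts covered in all 4 lists. Members past the fold in heart numbered 921 at a fold of 1.5, 1 at a fold of 3 and 12 after scaling by the median of shared regions, in kidney 80 at 1.5 and 0 at 3, in liver 101 at 1.5, 1 at 3, 4 against the mean of the other organs and 26 after scaling, and in lung 56 at 1.5. Scaling thus put liver above heart. For these other folds and scalings no share over all linked regions is at hand, so the counts describe the members only. Of single gene list values 40 stayed and 10 moved, and of motif shares 5 stayed and 4 moved. The cause of these changes was not tested. No paired analysis was possible because each organ has 1 list. Depth limits single members, since a region of 500 bp rests on few tags.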

Other observations

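Gene families named by symbol, chosen after their values were seen, spread widely in the share of genes with a compact region held by all lists. Usp genes, which encode deubiquitinases, had one in 34 of 55 (61.8%), Ube genes of ubiquitin conjugation in 23 of 42 (54.8%), translation initiation genes (Eif) in 29 of 55 (52.7%) and Zbtb transcription factors in 20 of 41 (48.8%), against 24.9% of all protein-coding genes. Zfp genes, mostly zinc finger proteins, had a compact region in 125 of 397 (31.5%) and a long one in 22.2%, fewer than the 29.9% of all genes. Solute carriers (Slc) had a compact one in 76 of 375 (20.3%) and Cyp genes, many of them cytochrome P450 enzymes of the liver, in 5 of 99 (5.05%). Olfactory receptors (Olfr) had 0 of 1110, which allows a share of up to 0.332%, and vomeronasal receptors (Vmn) 0 of 355, up to 1.03%.

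On the X chromosome 109 of 966 protein-coding genes (11.3%, 9.36 to 13.4) had a compact region, against 32.3% on chromosome 12, the highest share. Among other gene types, members overlapped 705 of 12697 lncRNA genes (5.55%), 70 of 1228 miRNA genes (5.70%), 56 of 1340 snoRNA genes (4.18%), 21 of 408 tRNA genes (5.15%) and 107 of 9852 pseudogenes (1.09%). These all lay in or beside a protein-coding gene by the choice of members, and whose transcript the tags belong to cannot be told apart.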
